A study of Mus musculus with 6 samples.

Results

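The genes described here encode red cell membrane proteins and the red cell form of pyruvate kinase. They were taken by symbol from the raw count table and are *Slc4a1*, *Epb42*, *Ank1*, *Sptb*, *Rhag*, *Kel*, *Ermap* and *Pklr*, 8 of 54532 genes, and all 8 were among the 19372 genes that passed the filter on low counts. RNA-seq was performed on individual embryonic hearts at E9.5, with 3 hearts per genotype, *Smyd1-KO* and WT. *Smyd1* encodes a muscle histone methyltransferase. The knockout is a conventional null allele, so the allele is carried by every cell of the embryo and not by cardiomyocytes alone. The labels give no sex and no further treatment, and hearts with the same number in the 2 genotypes are different embryos. RNA was extracted from whole hearts, so blood held in their chambers and vessels could be part of the sample, and in such bulk RNA fewer red cells and less RNA per red cell cannot be told apart.

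A red cell keeps its shape because a lattice of spectrin lies under the membrane and is tied to proteins that cross it. Band 3, the anion exchanger, is the main anchor. Ankyrin joins band 3 to spectrin, and protein 4.2 steadies that joint. The Rh proteins belong to the same complex, while the Kell protein and Ermap carry blood group antigens at the surface. A mature red cell has no mitochondria and makes its ATP by glycolysis, whose last step is catalysed by pyruvate kinase. In the mouse embryo at this stage the circulating cells are primitive erythroid cells from the yolk sac, which still contain nuclei and RNA.

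The bases before the transcription start were read for the members because GATA1 and KLF1, factors that act at red cell genes, bind short motifs there. The RefSeq promoter table for GRCm38.p6 matched 6 of the 8 members, with 7 windows of 250 bases, since *Pklr* has 2 starts. *Slc4a1* and *Ank1* were not matched. A GATA box was searched as GATAA or GATAG after an A or a T, and a CACCC box as CCNCNCCC, each on both strands, and matches of the 2 motifs do not overlap in these windows. The windows shown here are those of *Pklr* at its upstream start, from which the red cell form is made, of the 3 surface protein genes with a GATA box near the start, and of *Sptb*, the member whose level did not separate the genotypes. They are written 5′ to 3′ along the gene, and capitals mark the matches.
Pklr, chr3:89135892-89136141, plus strand: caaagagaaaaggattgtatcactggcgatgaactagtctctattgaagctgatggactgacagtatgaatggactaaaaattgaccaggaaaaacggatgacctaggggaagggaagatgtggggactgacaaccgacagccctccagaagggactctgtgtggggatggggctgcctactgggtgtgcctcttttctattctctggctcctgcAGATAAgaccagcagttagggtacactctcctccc
Kel, chr6:41704326-41704575, minus strand: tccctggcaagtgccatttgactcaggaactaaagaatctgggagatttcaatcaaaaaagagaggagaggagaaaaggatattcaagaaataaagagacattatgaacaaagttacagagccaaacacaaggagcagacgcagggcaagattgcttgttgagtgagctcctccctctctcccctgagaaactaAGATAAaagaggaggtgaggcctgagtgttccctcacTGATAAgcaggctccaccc
Rhag, chr17:40810899-40811148, plus strand: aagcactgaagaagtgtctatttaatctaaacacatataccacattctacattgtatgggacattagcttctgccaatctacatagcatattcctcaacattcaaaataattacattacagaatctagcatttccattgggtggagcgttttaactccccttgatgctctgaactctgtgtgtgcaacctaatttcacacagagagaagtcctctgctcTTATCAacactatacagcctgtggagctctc
Ermap, chr4:119189996-119190245, minus strand: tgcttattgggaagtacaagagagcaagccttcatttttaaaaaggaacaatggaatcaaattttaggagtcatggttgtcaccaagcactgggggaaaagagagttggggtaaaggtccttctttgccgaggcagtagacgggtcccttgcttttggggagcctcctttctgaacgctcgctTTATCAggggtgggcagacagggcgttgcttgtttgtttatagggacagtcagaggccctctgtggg
Sptb, chr12:76710548-76710797, minus strand: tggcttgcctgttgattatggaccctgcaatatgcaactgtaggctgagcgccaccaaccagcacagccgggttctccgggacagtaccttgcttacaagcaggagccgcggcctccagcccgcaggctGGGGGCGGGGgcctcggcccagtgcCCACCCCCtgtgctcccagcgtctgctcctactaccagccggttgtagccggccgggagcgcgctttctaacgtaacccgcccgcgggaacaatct
A GATA box was present in 5 of the 7 windows, against 26.5% of the 32851 promoter windows of the genome. The letters searched were widened after a first look at these windows, so the 2 shares are set side by side as a description only. In *Pklr* it lay 35 to 30 bases before the upstream start, in *Kel* at 56 to 51 and again at 19 to 14 bases, in *Rhag* at 31 to 26 bases and in *Ermap* at 67 to 62 bases. The match of *Epb42* was farther away, at 226 to 221 bases. The window of *Sptb* had no GATA box and 3 matches to CCNCNCCC, at 121 to 114, 119 to 112 and 96 to 89 bases. The first 2 overlap and do not hold the letters CACCC on either strand. CCNCNCCC was matched in 45.9% of all windows and in no other window of a member. The shorter letters CACCC, on either strand, also occur in the windows shown of *Pklr*, *Kel*, *Rhag* and *Ermap*. Their share over all windows was not counted, so it is not known whether this is more than in other genes. The window before the downstream start of *Pklr*, from which the liver form is made, held neither motif. These matches describe letters only, and binding was not measured.

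Depth and the level of the targeted gene were read first. Between 48627825 and 64217529 counts fell on genes per heart, the lowest in *Smyd1-KO* heart 1. *Smyd1* ranged from 270 to 414 CPM (counts per 1000000 counts of the library, scaled with edgeR's TMM factors) in WT and from 101 to 222 CPM in *Smyd1-KO* hearts, with no overlap and a log2 fold change of -1.01 (edgeR's adjusted *P* = 0.0973). Reads thus remained on *Smyd1* in the *Smyd1-KO* hearts. The deleted part of the allele is not given in the sources used here, so it is not known how far counts over the whole gene check the genotype. The 14 cardiomyocyte markers were high in all 6 samples, at a summed 13321 to 22456 CPM in WT, 9999 CPM in *Smyd1-KO* heart 1, and 20740 and 20895 CPM in the other *Smyd1-KO* hearts, and none of the 14 was called by edgeR or DESeq2 (1 had an unadjusted edgeR *P* under 0.05). Of 20 other erythroid genes, used as a reference, 19 were in the table and 16 were tested. Their summed level was 799 to 1059 CPM in WT and 76.2 to 338 CPM in *Smyd1-KO* hearts, again lowest in *Smyd1-KO* heart 1. *Smyd1-KO* heart 1 was thus the lowest heart in both marker groups.

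The comparison asked whether the members differed between *Smyd1-KO* and WT hearts. In 7 of the 8 genes every *Smyd1-KO* heart lay below every WT heart, an arrangement found in 15.5% of all tested genes. A gene was called where edgeR's quasi-likelihood test, adjusted over all tested genes, gave *P* below 0.05 and the log2 fold change was 0.5 or more in size. By this rule 4 members fell, *Pklr*, *Ermap*, *Kel* and *Ank1*, and none rose, while 1.42% of all tested genes were called lower. *Slc4a1*, *Epb42* and *Rhag* had adjusted *P* values just above the threshold, between 0.0512 and 0.0529. *Sptb* showed no separation. The median log2 fold change of the 8 members was -2.91, against 0.00 over all tested genes. Without *Smyd1-KO* heart 1, 7 members were called lower (2.23% of the genes tested then), and leaving out any other heart left 1 or 2 calls. In those other fits 8 to 139 of all tested genes were called lower, against 275 with all hearts. By edgeR, 7 members were lower at an unadjusted *P* under 0.05 in each of them. DESeq2 called 7 members lower (3.31% of its genes).

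**Figure D1:**
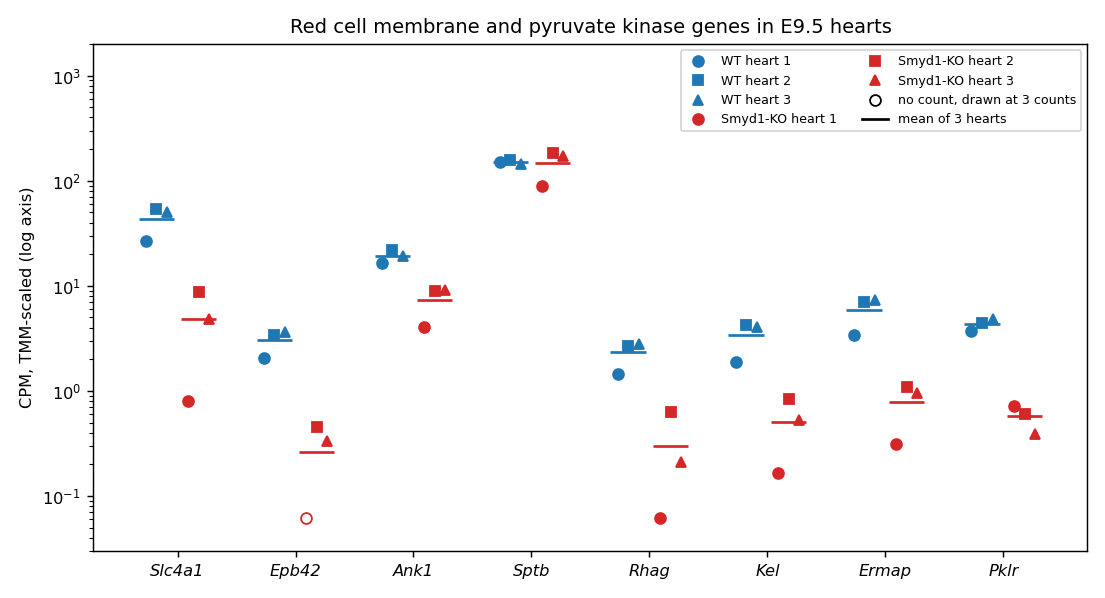
CPM of the 8 members on a log axis in each of the 3 WT and 3 Smyd1-KO hearts, with lines at the mean of each genotype and an open symbol for a heart without a count, drawn at the level of 3 counts. The genotypes overlap for Sptb, at 88.7 to 185 CPM in Smyd1-KO against 145 to 156 CPM in WT hearts, and lie apart for the other 7.

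Band 3, encoded by *Slc4a1* (ENSMUSG00000006574, chr11:102348824-102366203, minus strand), exchanges chloride for bicarbonate and holds the lattice to the membrane. *Slc4a1* measured 26.4, 53.6 and 50.9 CPM in WT hearts 1, 2 and 3 and 0.802, 8.81 and 4.85 CPM in *Smyd1-KO* hearts 1, 2 and 3. WT heart 1 was the lowest WT heart, *Smyd1-KO* heart 1 was the lowest of all, and the genotypes did not overlap. The mean was 43.6 ± 15 CPM (SD, n = 3) in WT and 4.82 ± 4.01 CPM (SD, n = 3) in *Smyd1-KO* hearts. The log2 fold change was -3.17 ± 0.717 (SE), 8.98-fold lower, with edgeR's adjusted *P* = 0.0512, which misses the threshold. That *P* was 0.00599 by DESeq2 and 0.0131 by edgeR without *Smyd1-KO* heart 1, where the log2 fold change was -2.67. Without any other heart edgeR's adjusted *P* stayed above the threshold, at 0.0664 to 0.176.

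Protein 4.2, encoded by *Epb42* (ENSMUSG00000023216, chr2:121017891-121037072, minus strand), is a relative of the transglutaminases that has lost enzyme activity and binds band 3. *Epb42* measured 2.05, 3.37 and 3.66 CPM in the WT hearts and 0, 0.457 and 0.333 CPM in the *Smyd1-KO* hearts. These *Smyd1-KO* values stand for 0, 27 and 19 counts, and a count of 0 in heart 1 allows up to 0.0617 CPM. The genotypes did not overlap, and *Smyd1-KO* heart 1 was the only one of the 6 hearts without a read on the gene. The log2 fold change was -3.48 ± 0.800 (SE), the most negative of the members and the 7th lowest of all 19372 tested genes. It was not called by edgeR, with an adjusted *P* of 0.0529, which was 0.0396 by DESeq2 and 0.00788 by edgeR without *Smyd1-KO* heart 1. Without any other heart the adjusted *P* of *Epb42* by edgeR was 0.0892 to 0.178.

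Ankyrin 1, encoded by *Ank1* (ENSMUSG00000031543, chr8:22974844-23150497, plus strand), links band 3 to beta spectrin, and other forms of it are made in muscle. *Ank1* measured 16.6, 21.8 and 19.3 CPM in the WT hearts and 4.03, 8.83 and 9.04 CPM in the *Smyd1-KO* hearts. *Smyd1-KO* heart 1 was again the lowest, and the highest *Smyd1-KO* heart stayed below the lowest WT heart. *Ank1* fell by 1.40 ± 0.301 (SE) on the log2 scale, 2.63-fold, with edgeR's adjusted *P* = 0.0445. The call held without *Smyd1-KO* heart 1 (edgeR's adjusted *P* = 0.0110) and was lost without any other heart, at 0.0710 to 0.171. An antisense gene, *Gm15816*, shares 862 bases of exon with it, and the strand setting of the counting is not given in the sources used here. *Gm15816* itself had 0.185 to 0.835 CPM and a log2 fold change of -0.98 (edgeR's adjusted *P* = 0.190).

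Beta spectrin, encoded by *Sptb* (ENSMUSG00000021061, chr12:76580488-76710547, minus strand), is a chain of the lattice under the membrane. *Sptb* measured 150, 156 and 145 CPM in the WT hearts and 88.7, 185 and 170 CPM in the *Smyd1-KO* hearts. *Smyd1-KO* heart 1 was below all WT hearts and the other *Smyd1-KO* hearts were above them, so the genotypes overlapped. The log2 fold change was -0.02 with a 95% interval of -0.60 to 0.56 (edgeR's adjusted *P* = 0.963). Without *Smyd1-KO* heart 1 the sign turned, to a log2 fold change of 0.24 (edgeR's adjusted *P* = 0.121). The cardiomyocyte markers had their lowest summed level in the same heart, and their part in the level of *Sptb* was not tested.

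The Rh-associated glycoprotein, encoded by *Rhag* (ENSMUSG00000023926, chr17:40811126-40840754, plus strand), is a membrane channel of the ammonium transporter family that brings the Rh protein to the surface. *Rhag* measured 1.46, 2.68 and 2.82 CPM in the WT hearts and 0.0617, 0.626 and 0.210 CPM in the *Smyd1-KO* hearts. The lowest value stands for 3 counts, in *Smyd1-KO* heart 1, and the genotypes did not overlap. The log2 fold change was -2.92 ± 0.666 (SE), with edgeR's adjusted *P* = 0.0523, not called. The adjusted *P* was 2.94e-05 by DESeq2, and by edgeR it was 0.0378 without *Smyd1-KO* heart 1 and 0.0376 without *Smyd1-KO* heart 2. Without *Smyd1-KO* heart 3 or any WT heart, edgeR's adjusted *P* was 0.0802 to 0.176.

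The Kell protein, encoded by *Kel* (ENSMUSG00000029866, chr6:41686330-41704339, minus strand), is a surface metallopeptidase that cleaves endothelin precursors and carries the Kell antigens. *Kel* measured 1.90, 4.25 and 4.07 CPM in the WT hearts and 0.165, 0.829 and 0.526 CPM in the *Smyd1-KO* hearts. WT heart 1 and *Smyd1-KO* heart 1 were the lowest of their genotypes, which did not overlap. *Kel* fell by 2.73 ± 0.560 (SE) on the log2 scale, 6.64-fold, with edgeR's adjusted *P* = 0.0392. The call held without *Smyd1-KO* heart 1 (0.0272 by edgeR) and was lost without any other heart, at an adjusted *P* of 0.0558 to 0.149.

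Ermap, a butyrophilin-like protein of the red cell surface that carries the Scianna antigens, is encoded by *Ermap* (ENSMUSG00000028644, chr4:119175457-119190011, minus strand). *Ermap* measured 3.37, 6.99 and 7.30 CPM in the WT hearts and 0.309, 1.08 and 0.946 CPM in the *Smyd1-KO* hearts. The order of the hearts was that of *Kel*, except that WT heart 3 was the highest of its genotype, and the genotypes did not overlap. *Ermap* fell by 2.90 ± 0.499 (SE) on the log2 scale, 7.49-fold, with edgeR's adjusted *P* = 0.0237. The call was lost without WT heart 2 or 3 or *Smyd1-KO* heart 2 or 3, where edgeR's adjusted *P* was 0.0597 to 0.111, and held without either heart numbered 1.

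Pyruvate kinase of liver and red cell is encoded by *Pklr* (ENSMUSG00000041237, chr3:89136142-89146784, plus strand), and counts per gene do not separate the forms made from its 2 starts. *Pklr* measured 3.74, 4.43 and 4.88 CPM in the WT hearts and 0.720, 0.609 and 0.385 CPM in the *Smyd1-KO* hearts. It was the only member that was not lowest in *Smyd1-KO* heart 1, and its genotypes did not overlap. *Pklr* fell by 2.93 ± 0.278 (SE) on the log2 scale, 7.61-fold, with edgeR's adjusted *P* = 0.00397, the lowest among the members. It was called by edgeR in all 6 fits that leave out 1 heart. The antisense gene *Hcn3* shares 711 bases of exon with *Pklr* and had its highest level, 3.35 CPM, in *Smyd1-KO* heart 1, with 1.78 to 2.32 CPM in the other hearts. The part of *Hcn3* reads in the *Pklr* values was not tested. Of 8 markers of hepatocytes and yolk sac endoderm, which also use *Pklr*, 6 were tested and none was called by edgeR (1 had an unadjusted *P* under 0.05, and DESeq2 called 1). They summed to 2.52 to 35.4 CPM in WT and 3.52 to 76.2 CPM in *Smyd1-KO* hearts. The levels varied between hearts of both genotypes: *Afp* ran from 0.0338 to 48.0 CPM, *Ttr* from 0.135 to 15.4 CPM and *Rbp4* from 0.856 to 10.7 CPM, while *Alb* was at 1.42 CPM or less. The part of this tissue in the *Pklr* values was not tested.

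**Figure D2:**
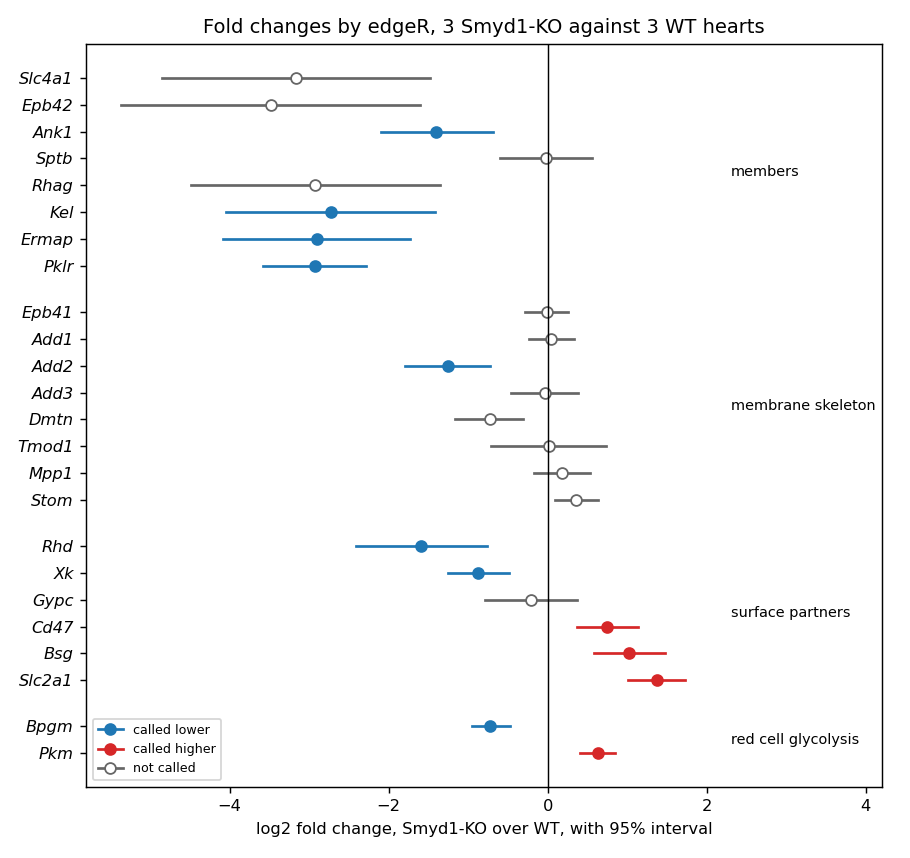
Log2 fold change of Smyd1-KO over WT hearts with its 95% interval by edgeR, for the members, other membrane skeleton genes, surface protein genes and 2 glycolysis genes. Filled points were called. Among the 6 members with the most negative values, Pklr has the narrowest interval, from -3.58 to -2.28, and Epb42 the widest, from -5.36 to -1.60.

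Per length, the members could be put in order in WT hearts. FPKM (CPM per kilobase of exon) averaged 12.4 ± 0.437 (SD, n = 3) for *Sptb*, 8.91 ± 3.06 (SD, n = 3) for *Slc4a1* and 1.42 ± 0.192 (SD, n = 3) for *Ank1*. *Sptb* did not overlap with *Slc4a1*, nor *Slc4a1* with *Ank1*. The mean FPKM in WT hearts was then 1.34 for *Pklr*, 1.23 for *Kel*, 1.11 for *Ermap*, 0.992 for *Rhag* and 0.559 for *Epb42*, and each of these neighbours in the order overlapped with the next. The *Smyd1-KO* means were 12.2 FPKM for *Sptb*, 0.986 FPKM for *Slc4a1* and 0.540 FPKM for *Ank1*, and between 0.0486 for *Epb42* and 0.183 for *Kel* for the others. *Sptb* was the highest and *Epb42* the lowest by this mean in both genotypes.

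The members were also alike in the order of the hearts within a genotype. *Smyd1-KO* heart 1 was the lowest of the *Smyd1-KO* hearts in 7 of the 8 members (39.7% of all tested genes), and WT heart 1 was the lowest WT heart in 7 of 8 (37.2%). The median of the 8 members, as log2 CPM minus the WT mean, was -0.56, 0.23 and 0.30 in WT hearts 1, 2 and 3 and -4.03, -2.07 and -2.78 in *Smyd1-KO* hearts 1, 2 and 3. All 8 members are on different chromosomes, and 6 of them had log2 fold changes between -3.48 and -2.73.

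The genes most like this median profile were sought among the 12867 protein-coding genes whose log2 CPM averaged 0 or more. Likeness was the root mean square difference over the 6 hearts, on the log2 scale. The nearest was *Hemgn*, an erythroid nuclear protein, at 0.129, and *Trim10*, a gene of erythroid differentiation, was at 0.268. *Klf1*, *Alas2*, *Hbb-bh1*, *Hba-x*, *Hba-a2* and *Hbb-y* were also among the 10 nearest, with the last at 0.625. The median difference over all compared genes was 2.19. Hearts of 2 genotypes make up the profile, so any gene that separates them alike scores well.

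**Figure D3:**
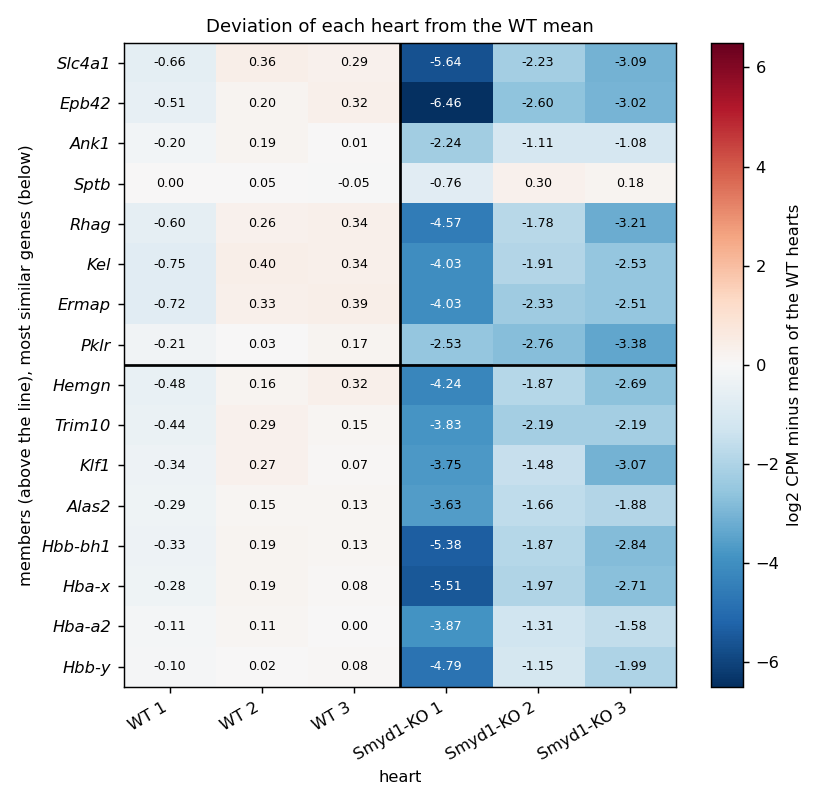
Log2 CPM minus the mean of the WT hearts, by colour and printed value, for the 8 members (above the line) and 8 of the 10 genes with the most similar profile (below), in each heart. Smyd1-KO heart 1 is the lowest for 7 members, down to -6.46 for Epb42, and Sptb stays between -0.76 and 0.30.

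Of the 9 other skeleton genes, *Add2*, a subunit of adducin that caps actin at the spectrin junction, was the only gene that edgeR called. Over all tested genes, 1.42% were called lower. *Add2* fell by 1.25 on the log2 scale, from between 8.29 and 11.1 CPM in WT hearts to between 2.94 and 4.97 CPM in *Smyd1-KO* hearts (edgeR's adjusted *P* = 0.0290). Without *Smyd1-KO* heart 1 edgeR called 2 skeleton genes, and without any other heart 0, where 8 to 139 of all tested genes were called lower. The median log2 fold change of the 9 was -0.01, and 5 had negative values. *Dmtn* had a log2 fold change of -0.73 with no overlap between the genotypes. Its adjusted *P* was 0.0637 by edgeR and 0.00295 by DESeq2. *Stom*, also without overlap, had a log2 fold change of 0.36 (edgeR's adjusted *P* = 0.113). *Epb41*, *Add1*, *Add3* and *Tmod1*, which many cell types use, had log2 fold changes between -0.04 and 0.04.

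Among 24 other surface protein, blood group and channel genes, 23 were tested. In this list 3 fell, *Rhd* and *Xk* among them, and 3 rose, *Cd47*, *Bsg* and *Slc2a1*. Of all tested genes, 1.42% were called lower and 2.86% higher. The 6 calls were 0 without WT heart 2, 1 without WT heart 3 or *Smyd1-KO* heart 3, and 3 without WT heart 1 or *Smyd1-KO* heart 2. Over all tested genes, 8 were called lower and 89 higher without WT heart 2, against 275 and 555 with all hearts. *Rhd*, the Rh antigen, fell by 1.59 on the log2 scale and *Xk*, the partner of Kell, fell by 0.88. The channel gene *Kcnn4* had a log2 fold change of -2.47 with no overlap between the genotypes. It was not called by edgeR (adjusted *P* = 0.0535), and its adjusted *P* was 7.65e-05 by DESeq2. Of the 23 tested genes, 13 had negative log2 fold changes. The genes that rose are also made by many other cells: *Slc2a1*, the glucose transporter, had a log2 fold change of 1.37, *Bsg*, basigin, of 1.02 and *Cd47*, an Rh complex protein that is also an inhibitory ligand for macrophages, of 0.75. The median of the list was -0.21.

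Of 14 other enzymes of red cell glycolysis, 9 rose and 1 fell, with a median log2 fold change of 0.63, against 2.86% called higher and 1.42% called lower of all tested genes. These calls depended on single hearts: edgeR called 0 of the 14 without WT heart 2 or WT heart 3, 2 without *Smyd1-KO* heart 2 and 5 without *Smyd1-KO* heart 3. Calls became fewer over the whole table too. Genes called higher went from 555 to 89 without WT heart 2 and to 130 without WT heart 3. In both fits 10 of the 14 were higher at an unadjusted edgeR *P* under 0.05, and their median log2 fold change was 0.59. The gene that fell was *Bpgm*, which makes the bisphosphoglycerate of red cells. *Bpgm* measured 31.9 to 32.8 CPM in WT and 17.8 to 21.5 CPM in *Smyd1-KO* hearts, a log2 fold change of -0.72 (edgeR's adjusted *P* = 0.0136). *Pkm*, the pyruvate kinase of most other tissues, rose by 0.63 on the log2 scale (edgeR's adjusted *P* = 0.0161), and measured 3184 to 3471 CPM in WT and 4936 to 5302 CPM in *Smyd1-KO* hearts.

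Of 17 tested paralogues of the members, 15 were not called, 1 was higher (*Pkm*) and 1 was lower (*Rhd*, itself a red cell gene and also on the surface list). Their median log2 fold change was 0.10, and 2.86% of all tested genes were called higher and 1.42% lower. *Slc4a2*, an anion exchanger of many cell types, averaged 9.55 FPKM in WT and 10.3 FPKM in *Smyd1-KO* hearts, while *Slc4a1* averaged 8.91 and 0.986 FPKM. The spectrin paralogue *Sptbn1* averaged 29.1 FPKM in WT and 29.7 FPKM in *Smyd1-KO* hearts, above *Sptb* in each. *Ece1*, an endothelin-converting relative of Kell, had a log2 fold change of -0.07 and *Ank3* of -0.17, both not called by edgeR (adjusted *P* = 0.831 and 0.561).

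**Figure D4:**
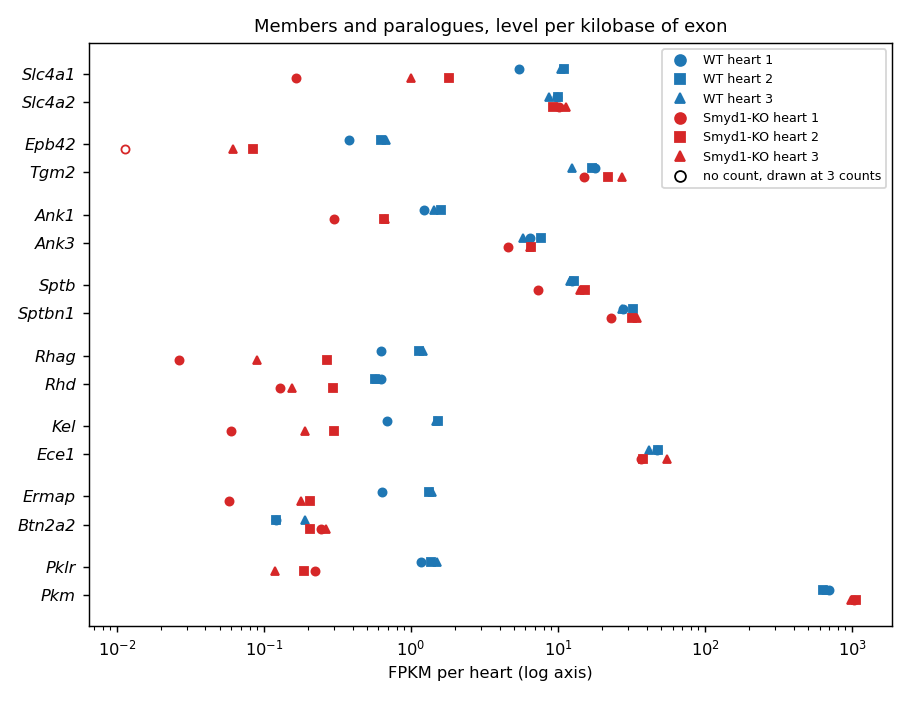
FPKM per heart, on a log axis, of each member and 1 paralogue of it, with Smyd1-KO hearts in red and WT hearts in blue. Slc4a1 and Slc4a2 have similar means in WT hearts, 8.91 and 9.55 FPKM, and part in Smyd1-KO hearts, at 0.986 and 10.3 FPKM.

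Partner genes were compared within each heart, as log2 ratios of CPM, in 7 pairs, of which 5 are described. With 3 hearts per genotype the smallest *P* of an exact two-sided permutation test is 0.1, so no pair could reach 0.05. That smallest value was reached by 4 of these 5 pairs, and it was 0.140 after adjustment over the 7. *Pklr* to *Pkm*, the pyruvate kinases of different tissues, had log2 ratios of -9.84, -9.48 and -9.40 in the WT hearts and -12.74, -13.01 and -13.52 in the *Smyd1-KO* hearts, a difference of -3.52. *Ank1* to *Sptb*, which bind each other, had log2 ratios of -3.17, -2.84 and -2.91 in the WT hearts and -4.45, -4.38 and -4.23 in the *Smyd1-KO* hearts, a difference of -1.38. All *Smyd1-KO* hearts were below all WT hearts in both pairs. *Kel* to *Xk* differed by -1.96 and *Rhag* to *Rhd* by -1.60, also with no overlap between the genotypes. *Epb42* to *Slc4a1*, which belong to the same anchor, overlapped between the genotypes and differed by -0.37 (exact permutation *P* = 0.3, adjusted 0.350). This difference depended on the prior count of 2, as *Epb42* had no count in *Smyd1-KO* heart 1. With a prior count of 0.5 it was -1.07.

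**Figure D5:**
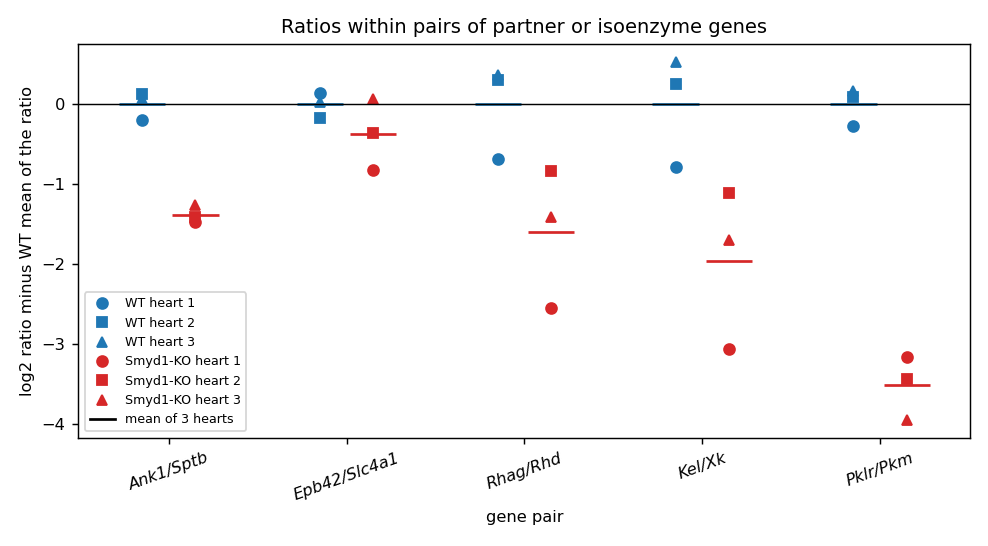
Log2 ratio of CPM within 5 gene pairs, minus the mean ratio of the WT hearts, in each heart, with lines at the genotype means. In 4 pairs every Smyd1-KO heart is below every WT heart, with a mean difference of -3.52 for Pklr to Pkm, and Epb42 to Slc4a1 overlaps.

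The erythroid reference genes were read beside the members. Of the 16 tested, 5 fell (*Gata1*, *Alas2*, *Hemgn*, *Nfe2* and *Trim10*), none rose, 14 had negative log2 fold changes, and the median was -2.05. Over all 19372 tested genes, 1.42% were called lower and 9731 had negative log2 fold changes. Without *Smyd1-KO* heart 1 edgeR called 11 of the 18 that were then tested (2.23% of all genes tested then were called lower). Without any other heart it called 0 to 3 of 16 to 18 tested, where 8 to 139 of all tested genes were called lower. *Gata1*, whose factor binds the GATA box, measured 1.98 to 3.61 CPM in WT and 0.0411 to 0.609 CPM in *Smyd1-KO* hearts, a log2 fold change of -3.14 (edgeR's adjusted *P* = 0.0445). *Klf1*, whose factor binds the CACCC box, had a log2 fold change of -2.49 that was not called (edgeR's adjusted *P* = 0.0512). Of 12 erythroid regulators, 2 fell (*Gata1* and *Nfe2*) and 1 rose (*Foxo3*), against 1.42% and 2.86% of all tested genes. Without *Smyd1-KO* heart 1 edgeR called 4 regulators lower and 2 higher, and without WT heart 2 it called 1. The part of red cell content in the fall of the members was not tested.

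Each member was also set against the median log2 CPM of the 16 erythroid reference genes in the same heart. That median, minus its WT mean, was -3.15, -1.10 and -1.33 in *Smyd1-KO* hearts 1, 2 and 3. The 16 genes did not move alike, since *Epor* had a log2 fold change of -0.33 and *Tfr2* of 0.78. Relative to it, *Epb42* differed by -2.17, *Slc4a1* by -1.80, *Rhag* by -1.33, *Ermap* by -1.10 and *Kel* by -0.97, with no overlap between genotypes and the smallest exact permutation *P* of 0.1 for each of the 5. *Sptb* was higher by 1.76, also without overlap. *Ank1*, at 0.38 (exact permutation *P* = 0.2), and *Pklr*, at -1.03 (exact permutation *P* = 0.4), overlapped between genotypes. For *Pklr*, the relative log2 level was 0.31 in *Smyd1-KO* heart 1, above every WT heart, and -1.97 and -2.36 in the other *Smyd1-KO* hearts. When the globins were left out of the reference, the median difference of the members went from -1.07 to -0.54. With a prior count of 0.5 in place of 2, *Epb42* differed from the reference by -2.86.

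Markers of other blood and heart cells were read in the same fit. Of 9 megakaryocyte genes, 4 were tested and none was called by edgeR or DESeq2, nor did any have an unadjusted *P* under 0.05 by edgeR. They summed to 7.61 to 10.9 CPM in WT and 6.85 to 9.16 CPM in *Smyd1-KO* hearts, with *Gp1bb* at 0 in all hearts. Of 9 macrophage genes, 4 were tested and none was called by edgeR, with 2 at an unadjusted *P* under 0.05 and 1 called by DESeq2. They summed to 6.73 to 7.06 CPM in WT and 6.62 to 9.02 CPM in *Smyd1-KO* hearts, with *Ptprc*, *Adgre1* and *C1qa* at 0.185 CPM or less in every heart, *Cd68* at 1.81 to 4.13 CPM (log2 fold change -0.62) and *Mrc1* at 2.21 to 5.08 CPM (log2 fold change 0.73). The 8 endothelial genes summed to 603 to 731 CPM in WT and 609 to 930 CPM in *Smyd1-KO* hearts, and edgeR called none (4 had an unadjusted *P* under 0.05, and DESeq2 called 3). The 6 epicardial genes summed to 106 to 129 CPM in WT and 141 to 266 CPM in *Smyd1-KO* hearts, and edgeR called none (2 had an unadjusted *P* under 0.05, and DESeq2 called 2). Without *Smyd1-KO* heart 1, edgeR called 1 cardiomyocyte, 1 endothelial and 3 epicardial genes.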

How the data were processed

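RNA of 6 E9.5 mouse hearts, 3 per genotype, was measured by RNA-seq. The deposited table used here holds raw counts per Ensembl gene, which the authors made from poly A paired-end reads that STAR, run through bcbio-nextgen, placed on mm10. The counting tool, annotation release and strand setting are not given in the sources used here. The deposited table of normalized counts was not used. Each of the 6 columns was mapped to its heart by name, and 0 columns were left unmapped.

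The members, lists and pairs were chosen with earlier results of these data known. Counts were fitted over the whole table in R 4.3.3 with edgeR 4.0.16 (low genes removed by filterByExpr, TMM scaling, then the quasi-likelihood test with Benjamini-Hochberg adjustment for 19372 genes). Calls needed an adjusted *P* below 0.05 and a log2 fold change of 0.5 or more in size. CPM are TMM-scaled, and log2 CPM per heart have a prior count of 2. FPKM used the union of exons in GENCODE vM21 (GRCm38), which also gave positions and overlaps. The biological coefficient of variation was 22.5%. The edgeR and DESeq2 tests set the difference between genotypes against the spread between embryos. Permutation tests used scipy 1.17.1, with Python 3.11.15 and pandas 2.3.3 for tables and matplotlib 3.10.9 for plots. The genes named are the members, the genes of the lists and the 10 genes nearest to the members' median profile. Results of 2 genes and 2 pairs among them are not reported here. The GATA motif was widened to its 4 forms after a first look at the windows.

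On simulated counts of 19372 genes with the dispersion of these hearts, edgeR called 45 of 52 genes set at a log2 change of -2.5, 27 of 64 at -1.0, and 8 of 18840 unchanged genes. Alternatives were DESeq2 1.42.0, RLE scaling, scaling without mitochondrial and globin genes, no filter, at least 10 counts in every heart, glmTreat against 0.5, a replicate block, a prior count of 0.5 and leaving out each heart.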

Additional observations from a re-analysis of the deposited data

How the results depend on the processing

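The number of members called lower was 4, and it was 7 by DESeq2, 7 with no filter on low counts and 1 by glmTreat against 0.5. Over all tested genes 275 were called lower, and 623 by DESeq2, 334 with no filter and 18 by glmTreat. Leaving out 1 heart gave 1 to 7 members, with 7 without *Smyd1-KO* heart 1 and 1 or 2 without any other heart. Over all tested genes 447 were called lower without *Smyd1-KO* heart 1 and 8 to 139 without any other heart. The log2 fold change of *Sptb* ran from -0.22 to 0.24 when 1 heart was left out and turned sign without *Smyd1-KO* heart 1 (0.24) and WT heart 2 (0.00). Those of the other 7 members stayed negative in every alternative run.

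Counts of called genes in the lists also moved. DESeq2 called 3 of the membrane skeleton, 10 of the erythroid reference, 6 of the regulators, 1 macrophage, 1 hepatocyte, 3 endothelial and 2 epicardial genes. Leaving out 1 heart gave 0 to 2 skeleton, 0 to 6 surface, 0 to 10 glycolysis, 0 to 1 paralogue, 0 to 11 erythroid reference, 1 to 6 regulator, 0 to 1 cardiomyocyte, 0 to 1 endothelial and 0 to 3 epicardial genes. The low counts of the surface and glycolysis genes were those without WT heart 2 (0 and 0), WT heart 3 (1 and 0), *Smyd1-KO* heart 2 (3 and 2) or *Smyd1-KO* heart 3 (1 and 5). In those fits 8 to 70 of all tested genes were called lower and 89 to 274 higher, against 275 and 555 with all hearts. The median difference of the members from the erythroid reference was -1.07, and -0.54 without the globins in the reference. The cause of these shifts was not tested.

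The labels do not say whether hearts with the same number share a litter or batch. Their deviations from the genotype means correlated at -0.216, -0.0538 and -0.182, against -0.156 to 0.286 for hearts with different numbers. With 3 hearts per genotype these values cannot decide it. With the replicate number as a block, 1 member (*Ermap*) was called lower, among 3 of all tested genes that were, and *Ank1*, *Kel* and *Pklr* had adjusted *P* values of 0.0973, 0.0592 and 0.0614 by edgeR. The block gave 0 calls among skeleton, surface, glycolysis, paralogue and erythroid reference genes and 1 among the regulators. A count of 0 allows up to 0.0450 to 0.0617 CPM, depending on the heart.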
